A study of Mus musculus with 18 samples.

Results

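This report describes 36 mouse genes that repair DNA crosslinks and broken chromosomes, in urinary bladders injured with cyclophosphamide. The genes were taken by symbol from the deposited count table, where each of the 36 had 1 row. They are 36 of 46333 named genes, and all 36 were among the 19323 genes that passed the filter on low counts. With the saline libraries alone 34 of them would have passed. Exo1 and Hrob passed only through the injured groups, where they were high, so their changes are given from their counts.

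RNA was sequenced from whole bladders of wild type female BALB/c mice, 8 weeks old, in 18 libraries that form 6 groups of 3 mice. On a normal diet the groups were saline at 1 day, cyclophosphamide (150 mg/kg, injected into the abdomen) at 1 day and cyclophosphamide at 3 days. The same 3 groups were made on a vitamin A-enriched diet begun 1 week before the injection, which held retinyl acetate at 566081 UI per kg by the labels, or retinyl palmitate by the series text. No saline bladder was taken at 3 days, so the comparison of 3 days with saline also differs in the day of collection, and mice were caged in groups of 3 with no cage given per mouse. Mice are numbered 1 to 3 within a group as in the labels. The series asks how extra vitamin A acts on regrowth of the bladder lining. For these genes the comparisons ask which repair genes moved after the drug, whether they moved again by 3 days, and whether diet altered either change.

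Cyclophosphamide is turned in the body into an alkylating mustard that ties the strands of DNA together, and one of its breakdown products, acrolein, reaches the urine and strips the urothelium, the lining of the bladder. A crosslink that blocks a replication fork is recognised by the Fanconi core complex, a ubiquitin ligase that marks the FANCI-FANCD2 clamp. Nucleases then unhook the crosslink, and the resulting break is mended by homologous recombination, in which BRCA1, PALB2 and BRCA2 act on resected DNA so that it can pair with an intact copy. Much of this machinery is made in cells that are copying their DNA, and its promoters can carry E2F or CCAAT motifs. E2F factors drive genes of the G1 to S transition, and CCAAT is bound by NF-Y, a factor common to promoters of dividing cells.

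Promoter windows are shown for 7 members because they place the contrast of the data, genes that rose beside genes that did not, next to their own regulatory sequence. They come from RefSeq, build GRCm38.p6, which is not the GRCm39 build of the count table, and 29 of the 36 members matched by gene. Each is read 5′ to 3′ on the gene's strand and lies before the annotated start site. Capitals mark the motif, as CCAAT or its complement ATTGG in the first 3 and the last, and as TTTCCCGC or its complement GCGGGAAA in the others.
Brip1, chr11:86201194-86201303, minus strand: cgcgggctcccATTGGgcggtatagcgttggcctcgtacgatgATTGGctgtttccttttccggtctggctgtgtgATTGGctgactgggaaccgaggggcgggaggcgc
Ube2t, chr1:134962430-134962564, plus strand: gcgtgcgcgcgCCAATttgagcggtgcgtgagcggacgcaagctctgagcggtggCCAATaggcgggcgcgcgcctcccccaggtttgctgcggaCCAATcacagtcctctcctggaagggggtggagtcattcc
Fancf, chr7:51862268-51862397, minus strand: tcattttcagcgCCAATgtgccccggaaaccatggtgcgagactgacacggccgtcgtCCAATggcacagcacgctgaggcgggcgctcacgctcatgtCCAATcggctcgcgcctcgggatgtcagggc
Bard1, chr1:71102973-71103192, minus strand: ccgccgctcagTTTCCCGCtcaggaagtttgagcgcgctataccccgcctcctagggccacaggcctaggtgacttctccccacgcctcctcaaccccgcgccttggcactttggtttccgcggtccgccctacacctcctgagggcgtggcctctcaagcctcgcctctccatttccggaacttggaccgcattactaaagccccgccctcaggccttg
Brca2, chr5:150522441-150522620, plus strand: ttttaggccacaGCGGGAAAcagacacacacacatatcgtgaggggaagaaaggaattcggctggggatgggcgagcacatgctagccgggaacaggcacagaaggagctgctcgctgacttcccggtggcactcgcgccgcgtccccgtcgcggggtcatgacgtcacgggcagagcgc
Fancg, chr4:43010302-43010371, minus strand: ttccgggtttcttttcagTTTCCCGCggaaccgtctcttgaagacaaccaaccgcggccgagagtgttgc
Brca1, chr11:101551956-101552055, minus strand: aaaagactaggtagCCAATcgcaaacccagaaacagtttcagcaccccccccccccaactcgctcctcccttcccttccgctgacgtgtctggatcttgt

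Brip1, Ube2t and Fancf hold 3 CCAAT motifs each, yet Brip1 and Ube2t rose after the drug and Fancf did not pass the test. Bard1 and Brca2 rose and hold 1 E2F-type motif, and Fancg holds the same letters, TTTCCCGC, without passing. Motifs were searched on both strands from 250 bases before to 50 bases after the start. An E2F-type motif (TTTCCCGC, TTTGGCGC, TTTCGCGC or TTTGCCGC) was present in 5 of the 29 members (17.2%), namely Bard1, Brca2, Chek2, Fancg and Mcm8, and in 2.32% of all 27025 promoters of the same length. CCAAT was present in 19 of 29 members (65.5%) and in 37.9% of all promoters. The CHR motif of late cell cycle genes (TTTGAA or TTCGAA) was present in 3 of 29 (10.3%) and in 19.4% of all promoters. Among the 16 matched members that rose at 1 day on either diet, 4 held an E2F-type motif, 11 held CCAAT and 2 held CHR. Among the 13 that did not rise, the numbers were 1, 8 and 1. These are descriptions of letters in a window, with no test, and no matches of different motifs within a member shared bases.

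The libraries held 19439887 to 34431039 counts in named genes, and no 2 libraries were identical. Genes that define the labelled tissue were abundant, with Upk2 and Upk3a of the urothelium at 1170 ± 47.5 and 1610 ± 40.2 CPM, and Myh11 of smooth muscle at 7130 ± 295 CPM, in normal diet saline mice (SD, n = 3). CPM is counts per 1000000 counts in named genes. 1 library stood apart, mouse 2 of the vitamin A group at 3 days, in which genes under 1000 bases took 14.2% of counts, against 7.13% to 10.8% in the other 17, and genes over 5000 bases took 24.5%, against 30.1% to 36.6%. Atm, Atr and Slx4 were lowest of all 18 libraries in that mouse. Counts of members and most log2 changes at 3 days on the vitamin A diet are therefore given with and without it. Changes are log2 ratios from edgeR's quasi-likelihood test with Benjamini-Hochberg adjustment over all 19323 genes and a threshold of 0.05.

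At 1 day after cyclophosphamide, 17 of the 36 members were higher than in saline on the normal diet (47.2%), where 7.26% of all genes tested were higher. On the vitamin A diet 22 of 36 were higher (61.1%), where 10.2% of all genes were. All 17 of the first set were among the 22. Both sets hold Exo1 and Hrob, and of the 34 members that pass the filter in saline alone 15 (44.1%) and 20 (58.8%) were higher. Fancc was the 1 member lower on the normal diet, where 4.49% of all genes were lower, and no member was lower on vitamin A, where 9.05% of all genes were. None reached an unadjusted p under 0.05 in that direction on vitamin A, and DESeq2 called none. The median log2 change of the 36 members was 0.70 on the normal diet and 1.11 on vitamin A, beside medians of 0.00 and -0.01 over all genes, and over the 34 it was 0.57 and 1.08. In whole bladders, more cells that express a gene and more RNA of it per cell cannot be told apart. The count on the normal diet was 11 when saline mouse 3 was left out, and 13 to 15 when any other mouse of that comparison was.

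**Figure D1:**
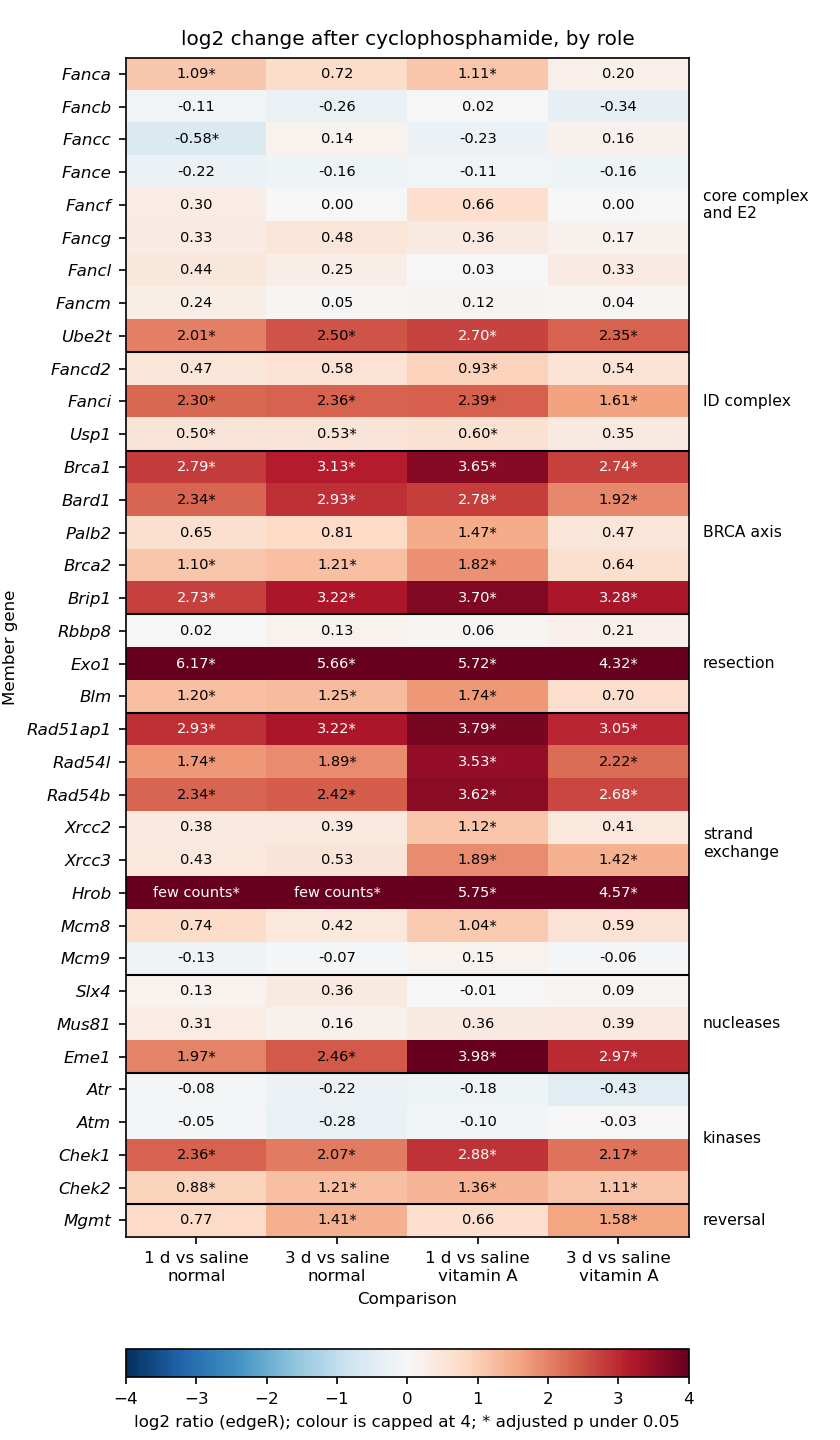
The log2 change of each of the 36 members (rows, grouped by role) against saline of the same diet at 1 day and 3 days after cyclophosphamide (columns), with an asterisk where the adjusted p was under 0.05 and colour capped at 4. Hrob on the normal diet is marked as few counts because its saline group held 2 counts in all. Strong colour sits in Brca1, Bard1, Brip1, Exo1, Rad51ap1, Rad54l, Rad54b and Hrob, and also in Ube2t, Fanci, Eme1 and Chek1. Most rows of the core complex stay pale, and so does Rbbp8 among the resection rows.

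At 3 days after the drug 17 members were higher than in saline on the normal diet (47.2%), where 6.74% of all genes were. On vitamin A 15 were higher (41.7%), where 4.32% of all genes were, and 14 of the 15 without mouse 2. Of the 34 members that pass in saline alone, 15 (44.1%) and 13 (38.2%) were higher at 3 days. No member was lower, with 3.3% of all genes lower on the normal diet and 1.67% on vitamin A. No member reached an unadjusted p under 0.05 in the lower direction on the normal diet, and Atr alone did on vitamin A, where without mouse 2 its p was 0.159. The sets on the 2 diets shared 14 members. Blm, Brca2 and Usp1 passed on the normal diet alone and Xrcc3 on vitamin A alone. Whether the change of these 4 at 3 days against saline differed between the diets was not tested.

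The members differed widely in their level at rest. By FPKM, the deposited count scaled by gene length and library, Fance was highest in normal diet saline bladders (14.2 ± 1.19), followed by Usp1 (11.7 ± 0.541), then Rbbp8, Mus81 (8.28 ± 0.967) and Fancl (6.24 ± 0.778). Each of these neighbours differed by more than its SD. At the lower end Brip1 stood at 0.15 ± 0.0535 and Rad54b at 0.137 ± 0.0777, which do not differ beyond their spread, and Exo1 and Hrob at 0.0102 and 0.0101 rested on 6 and 2 counts. Members low at rest tended to rise more. Across the 36 members, the FPKM in normal diet saline mice and the log2 change at 1 day on vitamin A, which share no library, had a Spearman rho of -0.86, beside -0.06 across all 19323 genes tested. The 36 include Exo1 and Hrob, which had the lowest levels and the largest log2 changes and passed the filter through the injured groups only. A rho without Exo1 and Hrob was not computed. The rho is a description across genes of shared libraries and is given with no p. A member with few counts at rest can show a large ratio from a small absolute rise, so both scales are given below.

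**Figure D2:**
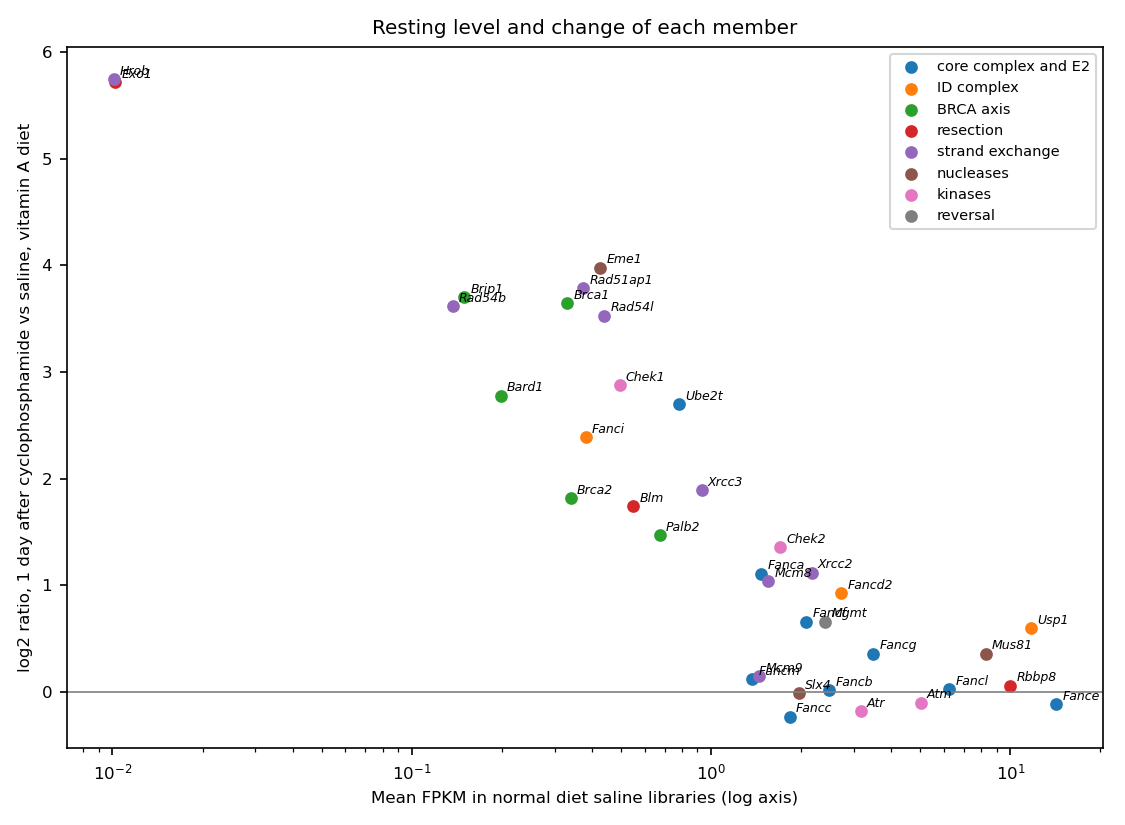
Each point is 1 member, placed by its mean FPKM in the 3 normal diet saline libraries (log axis) and its log2 change at 1 day against saline on the vitamin A diet, coloured by role. Members at or above the level of Fancb (2.48 FPKM) all lie below a log2 change of 1, and members below that of Xrcc3 (0.931 FPKM) all lie above it. Exo1 and Hrob, at the lowest levels, passed the filter on low counts through the injured groups only.

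The Fanconi core complex and UBE2T, the ubiquitin-conjugating enzyme that works with it, were split. Of these 9 genes, 2 rose at 1 day on both diets, Fanca and Ube2t. Ube2t (GRCm39 chromosome 1, 134890303 to 134901918, plus strand) stood at 1.76, 0.335 and 0.579 CPM in normal diet saline mice 1 to 3 and at 3.35, 5.08 and 2.25 CPM 1 day after the drug. The vitamin A mice held 0.784, 0.817 and 1.46 CPM in saline and 8.25, 5.66 and 6.32 CPM at 1 day. The groups did not overlap on either diet. At 1 day the vitamin A mice were all above the normal diet ones, a difference that did not pass. The log2 change was 2.01 (SE 0.48, adjusted p = 0.00956) on the normal diet and 2.70 (SE 0.47, adjusted p = 0.000482) on vitamin A. The first of these calls was lost without cyclophosphamide mouse 2 or saline mouse 3, with an adjusted p of up to 0.0624. At 3 days Ube2t was still higher, by 2.50 and 2.35 log2 units (2.39 on vitamin A without mouse 2).

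Fanca, the scaffold subunit (GRCm39 chromosome 8, 123993033 to 124045390, minus strand), went from 8.79, 9.37 and 12.3 CPM in normal diet saline mice to 21.8, 23.6 and 19.7 CPM at 1 day. In vitamin A mice it went from 10.9, 11.5 and 14.2 to 33.6, 29.3 and 17.3 CPM. Both saline groups lay below both injured groups. The rise was 2.14-fold (log2 1.09, SE 0.30, adjusted p = 0.0255) on the normal diet and 2.15-fold (log2 1.11, SE 0.30, adjusted p = 0.0147) on vitamin A. These calls depended on all mice being present. The normal diet call was lost without any 1 mouse except saline mouse 3 (adjusted p up to 0.1), and the vitamin A call without mouse 1 or 2 of either group (up to 0.0592). At 3 days Fanca did not pass on either diet, with log2 changes of 0.72 and 0.20 (0.50 without mouse 2).

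The other 7 core genes passed in no comparison with saline, apart from Fancc at 1 day on the normal diet. FANCL is the ligase subunit, FANCM the translocase that finds stalled forks, and FANCB, FANCG, FANCC, FANCE and FANCF are structural partners. Fance lay between 19.3 and 31.5 CPM and Fancm between 6.46 and 18.4 CPM over all 18 libraries, the lowest of each being mouse 2 of the vitamin A group at 3 days. Their log2 changes against saline, over both diets and times, ran from -0.22 to -0.11 for Fance and from 0.04 to 0.24 for Fancm. On the normal diet Fancl lay above saline without overlap at 1 day (13.9 to 16.0 against 9.51 to 12.1 CPM). At 3 days there Fancg lay above saline (13.6 to 17.1 against 9.38 to 12.5 CPM) and Fancb below it (7.23 to 7.98 against 8.32 to 9.21 CPM). None of these passed. Fancc was 11.2, 13.4 and 14.2 CPM in normal diet saline mice and 8.51, 9.12 and 8.31 CPM at 1 day. The groups did not overlap, and the log2 change was -0.58 (SE 0.18, adjusted p = 0.0437). That call was lost without any 1 of the 6 mice (adjusted p up to 0.161). On vitamin A the Fancc change was -0.23 (adjusted p = 0.421). Fancf, whose promoter is printed above, changed by 0.30 and 0.66 log2 units at 1 day with no overlap between groups, and did not pass (adjusted p = 0.475 and 0.0666).

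The FANCI-FANCD2 clamp and USP1, the enzyme that removes its ubiquitin, moved unequally. Fanci (GRCm39 chromosome 7, 79042056 to 79100013, plus strand) stood at 2.73, 2.53 and 0.823 CPM in normal diet saline mice, 10.9, 12.4 and 6.18 CPM at 1 day and 12.3, 8.38 and 11.4 CPM at 3 days. Its vitamin A values were 2.93, 2.49 and 3.25 CPM, then 23.0, 13.4 and 10.3 CPM, then 6.53, 7.38 and 12.8 CPM. Every injured mouse lay above every saline mouse. The log2 change at 1 day was 2.30 (SE 0.41, adjusted p = 0.00126) on the normal diet and 2.39 (SE 0.41, adjusted p = 0.000357) on vitamin A. At 3 days it was 2.36 and 1.61 (1.69 without mouse 2), the latter call lost without cyclophosphamide mouse 3 or any 1 saline mouse (adjusted p up to 0.0992).

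Fancd2, the partner of Fanci, began higher and changed less. It went from 15.1 ± 2.06 to 21.1 ± 6.86 CPM at 1 day on the normal diet and from 13.6 ± 3.67 to 26.4 ± 10.3 CPM on vitamin A (SD, n = 3). The first change did not pass (log2 0.47, adjusted p = 0.36) and its groups overlapped, since injured mouse 3 at 13.2 CPM lay below 2 of the 3 saline mice. The second passed (log2 0.93, SE 0.31, adjusted p = 0.0437), and was lost without mouse 1 or 2 of either group (adjusted p up to 0.205). Usp1 was among the most abundant members and rose by a small, even step, from 42.6, 43.7 and 40.6 to 62.6, 61.9 and 55.0 CPM on the normal diet. The vitamin A mice went from 41.5, 41.3 and 43.2 to 72.5, 66.7 and 56.3 CPM. Groups did not overlap, and the rise was 1.41-fold (log2 0.50, SE 0.12, adjusted p = 0.0109) and 1.52-fold (log2 0.60, SE 0.12, adjusted p = 0.00155). Without saline mouse 3 the normal diet call was lost (adjusted p = 0.0606).

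Of the 5 genes of the BRCA axis, 4 rose at 1 day on the normal diet and all 5 on vitamin A, with median log2 changes of 2.34 and 2.78. BRCA1 and BARD1 form a ubiquitin ligase that promotes resection. Brca1 (GRCm39 chromosome 11, 101379587 to 101442808, minus strand) stood at 3.37, 2.1 and 1.46 CPM in normal diet saline mice, 20.8, 18.2 and 8.51 CPM at 1 day and 25.2, 16.8 and 20.5 CPM at 3 days. On vitamin A it stood at 1.74, 1.87 and 2.38 CPM, then 31.5, 24.5 and 20.4 CPM, then 10.6, 8.93 and 20.6 CPM. No injured mouse overlapped a saline mouse, and at 3 days 2 of the 3 vitamin A mice had dropped below all the normal diet ones. The rise at 1 day was 6.91-fold (log2 2.79, SE 0.38, adjusted p = 9.17e-05) on the normal diet and 12.5-fold (log2 3.65, SE 0.38, adjusted p = 3.43e-06) on vitamin A. Leaving out any 1 mouse kept both calls.

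Bard1 (GRCm39 chromosome 1, 71066690 to 71142300, minus strand) went from 0.342, 1.48 and 1.52 CPM in normal diet saline to 4.68, 8.19 and 4.46 CPM at 1 day and 9.61, 7.95 and 9.38 CPM at 3 days. On vitamin A it went from 1.25, 0.622 and 1.79 CPM to 11.6, 7.82 and 6.42 CPM and then to 4.96, 3.43 and 5.58 CPM. At 3 days the diets no longer overlapped, the normal diet mice being higher. The log2 change at 1 day was 2.34 (SE 0.44, adjusted p = 0.00177) and 2.78 (SE 0.44, adjusted p = 0.000186).

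BRIP1 is the helicase that binds BRCA1. Brip1 (GRCm39 chromosome 11, 85948957 to 86092041, minus strand) went from 0.684, 1.43 and 1.07 CPM to 7.89, 9.24 and 4.22 CPM on the normal diet, and from 0.842, 0.545 and 0.542 CPM to 13.2, 6.79 and 6.32 CPM on vitamin A. All saline mice lay at 1.43 CPM or below, and all injured mice at 4.19 CPM or above. The rise was 6.65-fold (log2 2.73, SE 0.39, adjusted p = 0.000144) and 13.0-fold (log2 3.70, SE 0.40, adjusted p = 4.88e-06). At 3 days Brip1 was 3.22 and 3.28 log2 units above saline (3.48 on vitamin A without mouse 2).

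PALB2 bridges BRCA1 to BRCA2. Brca2 (GRCm39 chromosome 5, 150445759 to 150493612, plus strand) stood at 4.64, 2.72 and 4.94 CPM in normal diet saline and 10.5, 8.59 and 7.41 CPM at 1 day. On vitamin A it went from 2.79, 4.44 and 4.75 to 19.7, 11.9 and 11.3 CPM and then to 6.9, 3.55 and 8.37 CPM at 3 days. The 1 day groups were clear of saline on both diets, while at 3 days the lowest vitamin A mouse, mouse 2, lay within the saline range. The log2 change at 1 day was 1.10 (SE 0.31, adjusted p = 0.0282) and 1.82 (SE 0.32, adjusted p = 0.000453). The normal diet call was lost without any 1 mouse except cyclophosphamide mouse 3 (adjusted p up to 0.13). Palb2 had means of 2.62 ± 0.669 and 7.4 ± 0.656 CPM on vitamin A, a rise of 1.47 log2 units (SE 0.30, adjusted p = 0.00183). On the normal diet it went from 3.31 ± 0.419 to 5.21 ± 0.237 CPM without overlap of the groups and did not pass (log2 0.65, adjusted p = 0.169).

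**Figure D3:**
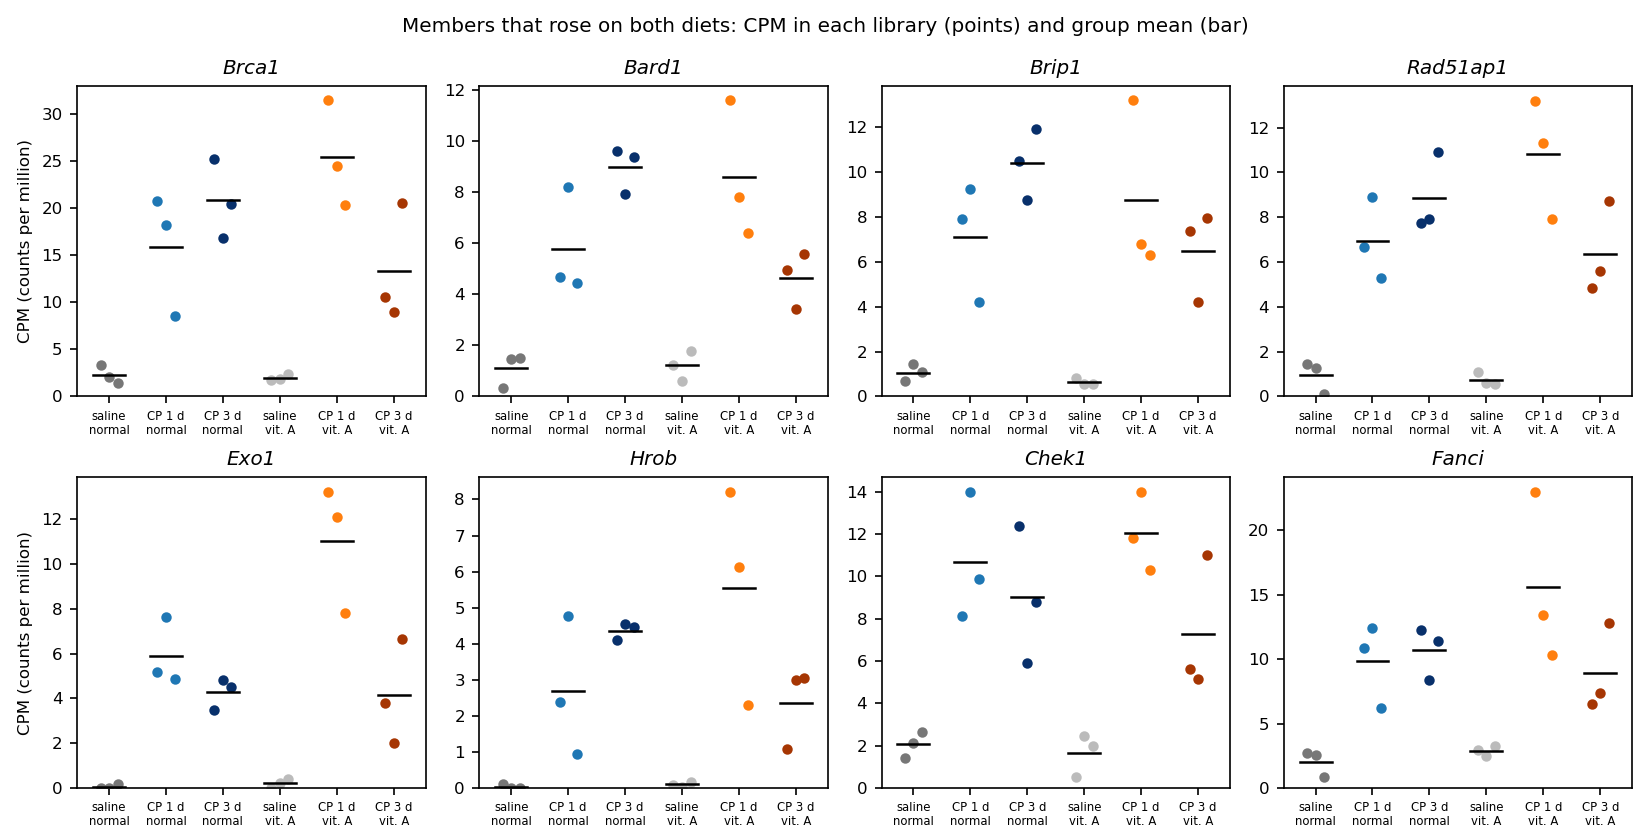
CPM of 8 members that rose on both diets, in each library (points) and as group means (bars), for saline, 1 day and 3 days after cyclophosphamide on the normal and the vitamin A diet. In each panel the saline points lie near the axis and all points of the 1 day groups lie above them, as with Brca1 at 8.51 CPM or more against 3.37 CPM or less. The panels were picked among members that rose, so this order is no separate evidence. Exo1 and Hrob passed the filter on low counts through the injured groups only.

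End resection genes differed widely. CtIP, encoded by Rbbp8, starts resection, and Rbbp8 lay between 29.4 and 52.5 CPM in all 18 libraries, with log2 changes of 0.02 and 0.06 at 1 day (adjusted p = 0.967 and 0.828). EXO1 is the nuclease that extends it. Exo1 (GRCm39 chromosome 1, 175708334 to 175738962, plus strand) was at 0, 0 and 0.183 CPM in normal diet saline, 6 counts in all, and at 5.16, 7.63 and 4.87 CPM at 1 day. The vitamin A mice were at 0, 0.233 and 0.417 CPM, 16 counts, and at 13.2, 12.1 and 7.81 CPM at 1 day. A gene all but unread at rest was read in every injured mouse. The ratio of summed counts per total was 73.3 (exact 95% Clopper-Pearson interval 33.4 to 201) and 58.0 (35.5 to 102), intervals that cover counting error only. At 3 days the ratios were 52.6 (24.0 to 144) and 22.9 (13.9 to 40.5), the latter 28.5 (17.3 to 50.5) without mouse 2.

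BLM, the helicase that dissolves joint molecules, changed less. Blm (GRCm39 chromosome 7, 80104741 to 80184896, minus strand) went from 3.08, 4.02 and 2.9 CPM to 7.55, 9.89 and 5.48 CPM at 1 day on the normal diet, and from 3.51, 4.05 and 4.42 to 15.1, 11.7 and 14.0 CPM on vitamin A. Injured mice were above saline mice, and all 3 on vitamin A were above all 3 on the normal diet. The log2 change was 1.2 (SE 0.27, adjusted p = 0.00724) and 1.74 (SE 0.27, adjusted p = 0.000152).

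The 8 genes that aid strand exchange gave 4 rises on the normal diet and 7 on vitamin A, with median log2 changes of 1.24 and 2.71. Hrob, which passed the filter on low counts through the injured groups only, is in both counts and both medians. Without Hrob 3 and 6 rose. Rad51ap1 encodes a protein that stimulates the joining of strands. Rad51ap1 (GRCm39 chromosome 6, 126900378 to 126916664, minus strand) went from 1.46, 1.29 and 0.0915 CPM to 6.69, 8.88 and 5.28 CPM on the normal diet and from 1.1, 0.584 and 0.542 CPM to 13.2, 11.3 and 7.91 CPM on vitamin A. Saline and injured mice did not overlap on either diet. The rise was 7.6-fold (log2 2.93, SE 0.55, adjusted p = 0.00179) and 13.8-fold (log2 3.79, SE 0.56, adjusted p = 9.65e-05).

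RAD54L and RAD54B are motors that remodel DNA during strand invasion. Rad54l (GRCm39 chromosome 4, 115951458 to 115980897, minus strand) stood at 3.42, 2.82 and 1.49 CPM in normal diet saline, 8.46, 10.3 and 6.96 CPM at 1 day and 9.73, 9.7 and 10.2 CPM at 3 days. Vitamin A mice were at 1.05, 1.17 and 2.08 CPM, then 19.4, 18 and 12.7 CPM, then 4.21, 3.83 and 11.9 CPM. At 1 day the diets did not overlap, and at 3 days 2 of the 3 vitamin A mice lay below the normal diet mice and 1 above. The log2 change at 1 day was 1.74 (SE 0.40, adjusted p = 0.00738), lost without saline mouse 3 (adjusted p = 0.0509), and 3.53 (SE 0.42, adjusted p = 1.23e-05). Rad54b rose from 0.966 ± 0.544 to 4.81 ± 1.75 CPM on the normal diet and from 0.642 ± 0.352 to 7.92 ± 0.535 CPM on vitamin A, by 2.34 and 3.62 log2 units (adjusted p = 0.00274 and 3.68e-05).

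HROB recruits the MCM8-MCM9 helicase, which unwinds DNA during repair synthesis. Hrob (GRCm39 chromosome 11, 102139677 to 102156009, plus strand) held 2 counts over the 3 normal diet saline mice and 8 over the vitamin A ones. At 1 day it stood at 2.39, 4.76 and 0.941 CPM on the normal diet and at 8.2, 6.12 and 2.29 CPM on vitamin A. Every injured mouse was above every saline mouse, and mouse 3 was the lowest on both diets. The ratio of counts per total was 101 (95% interval 27.6 to 840) and 58.4 (29.3 to 136). The helicase genes did not follow in step. Mcm8 went from 4.07 ± 0.71 to 8.54 ± 1.32 CPM on vitamin A (log2 1.04, adjusted p = 0.00589) and from 5.4 ± 1.3 to 9.05 ± 1.89 CPM on the normal diet (log2 0.74, adjusted p = 0.057). Mcm9 changed by -0.13 and 0.15 log2 units (adjusted p = 0.774 and 0.685).

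XRCC2 and XRCC3 act early in strand exchange. Xrcc2 passed at 1 day on vitamin A, with means of 5.4 ± 1.29 and 12.0 ± 0.82 CPM and a change of 1.12 log2 units (SE 0.25, adjusted p = 0.00397), and had a change of 0.38 on the normal diet (adjusted p = 0.369). Xrcc3 (GRCm39 chromosome 12, 111769626 to 111780326, minus strand) was at 2.83, 2.58 and 3.45 CPM in normal diet saline and at 1.05, 1.4 and 1.79 CPM in vitamin A saline. At 1 day it was at 5.16, 3.71 and 3.07 CPM and at 8.59, 4.37 and 3.08 CPM. The injured groups overlapped between diets and the saline groups did not. Xrcc3 changed by 0.43 log2 units on the normal diet (adjusted p = 0.547) and by 1.89 on vitamin A (SE 0.42, adjusted p = 0.00325). At 3 days the vitamin A change of 1.42 (adjusted p = 0.0485, and 1.47 without mouse 2) was lost without any 1 mouse except cyclophosphamide mouse 1 (adjusted p up to 0.181).

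Among the nucleases, EME1 is the partner of MUS81, an enzyme that cuts branched DNA, and SLX4 is the scaffold that holds it. Eme1 (GRCm39 chromosome 11, 94535798 to 94544611, minus strand) went from 0.781, 1.43 and 0.793 CPM to 4.44, 4.84 and 2.46 CPM on the normal diet and then to 7.85, 3.44 and 5.9 CPM at 3 days. On vitamin A it went from 0.871, 0.195 and 0.625 CPM to 10.7, 11.1 and 6.27 CPM and then to 2.73, 4.59 and 6.36 CPM. At 1 day all vitamin A mice exceeded all normal diet mice. The log2 change was 1.97 (SE 0.48, adjusted p = 0.0122) and 3.98 (SE 0.51, adjusted p = 2.54e-05). Without saline mouse 1 or 3 the normal diet call was lost (adjusted p up to 0.0686).

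The catalytic partner did not share this. Mus81 lay between 17.9 and 29.2 CPM in all libraries and changed by 0.31 and 0.36 log2 units at 1 day (adjusted p = 0.203 and 0.107), with injured groups that did not overlap saline. Slx4 lay between 12.8 and 32.1 CPM and changed by 0.13 and -0.01.

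The checkpoint kinases split by tier. ATM and ATR sense breaks and stalled forks, and CHK1 and CHK2 carry their signal. Atm lay between 34.8 and 72.8 CPM and Atr between 18.5 and 42.6 CPM over all 18 libraries, and their log2 changes against saline at 1 day ran from -0.18 to -0.05. Chek1 (GRCm39 chromosome 9, 36619778 to 36637954, minus strand) went from 1.42, 2.1 and 2.65 CPM to 8.12, 14.0 and 9.9 CPM on the normal diet, and from 0.494, 2.45 and 1.96 CPM to 11.8, 14.0 and 10.3 CPM on vitamin A. On both diets the injured mice were clear of the saline mice. The rise was 5.14-fold (log2 2.36, SE 0.45, adjusted p = 0.00187) and 7.37-fold (log2 2.88, SE 0.46, adjusted p = 0.000192). Chek2 means were 7.57 ± 1.34 and 13.9 ± 1.59 CPM on the normal diet and 6.8 ± 0.687 and 17.8 ± 6.44 CPM on vitamin A. The rise was 0.88 log2 units (SE 0.26, adjusted p = 0.0347) and 1.36 (SE 0.26, adjusted p = 0.00117). The normal diet call of Chek2 was lost without any 1 mouse except saline mouse 1 (adjusted p up to 0.127).

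MGMT removes alkyl groups from guanine in a single step, apart from the pathways above. Mgmt (GRCm39 chromosome 7, 136496192 to 136729922, plus strand) had its highest levels at 3 days. On the normal diet it was at 3.76, 5.4 and 5.06 CPM in saline, 6.07, 10.2 and 7.98 CPM at 1 day and 15.8, 13.3 and 10.2 CPM at 3 days. With vitamin A it was at 8.13, 4.82 and 5.71 CPM, then 14.7, 8.69 and 7.11 CPM, then 13.0, 26.3 and 16.6 CPM. The 3 day groups were clear of saline. At 1 day the change did not pass on either diet (log2 0.77 and 0.66, adjusted p = 0.14 and 0.168). At 3 days it passed on both, at 1.41 (SE 0.33, adjusted p = 0.00956) and 1.58 (SE 0.32, adjusted p = 0.00497). The value of 26.3 CPM belongs to the library that stood apart, and without it the vitamin A change was 1.19 and still passed. The normal diet call was lost without cyclophosphamide mouse 1 or saline mouse 1 (adjusted p up to 0.0544).

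**Figure D4:**
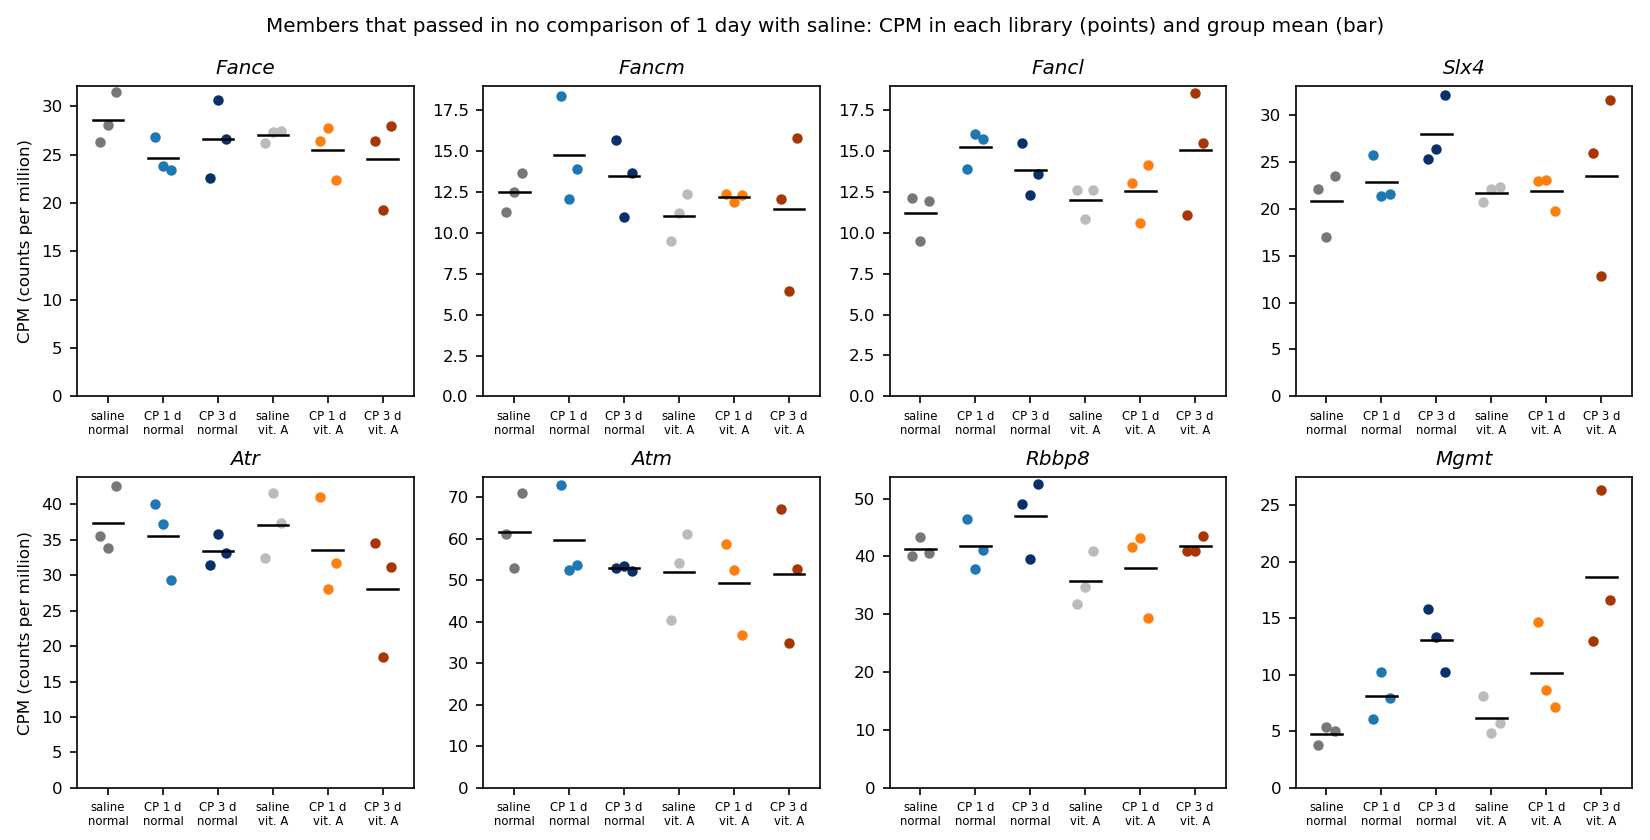
CPM of 8 members that did not pass at 1 day against saline on either diet, in each library (points) and as group means (bars). Fance, Fancm, Atr, Atm and Rbbp8 overlap saline of the same diet at both times, while Mgmt climbs to 10.2 to 26.3 CPM at 3 days. On the normal diet Fancl lies above saline at 1 day (13.9 to 16.0 against 9.51 to 12.1 CPM). Slx4 does so there at 3 days (25.3 to 32.1 against 17.0 to 23.5 CPM), and neither passed.

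Between 1 and 3 days few members passed the test. On the normal diet no member passed in either direction, where 1.22% of all genes were higher at 3 days and 0.217% lower. Just 1 member had an unadjusted p under 0.05 (2.78%, beside 11.3% of all genes). That was Fancc, with means of 8.64 ± 0.423 and 14.8 ± 2.99 CPM and a change of 0.72 log2 units (SE 0.18, adjusted p = 0.0539). It passed with DESeq2 (adjusted p = 0.00462). On vitamin A no member was higher, where 2.55% of all genes were, and 2 were lower, where 1.69% of all genes were. An unadjusted p under 0.05 was reached there by 15 members (41.7%, beside 19.3% of all genes), 2 of them higher and the rest lower. Blm went from 15.1, 11.7 and 14.0 to 7.23, 4.47 and 7.99 CPM (log2 -1.04, SE 0.26, adjusted p = 0.0318). Brca2 means were 14.3 ± 4.66 and 6.27 ± 2.47 CPM, a log2 change of -1.18 (SE 0.31, adjusted p = 0.0367). Neither pair of groups overlapped. Both calls were lost without any 1 mouse except cyclophosphamide mouse 3 at 3 days, with adjusted p up to 0.0929 and 0.109, and without mouse 2 at 3 days the changes were -0.86 and -0.92. Of the 36 members, 7 had a change above 0 on vitamin A and 25 on the normal diet, with medians of -0.43 and 0.09, beside 0.01 and -0.01 over all genes. Without mouse 2 at 3 days the vitamin A median was -0.36, 8 members were above 0 and none passed. In that run 8 members had an unadjusted p under 0.05, 1 of them higher. DESeq2 called 8 members lower on vitamin A, adding Fanca, Fancf, Palb2, Exo1, Rad54l and Xrcc2.

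**Figure D5:**
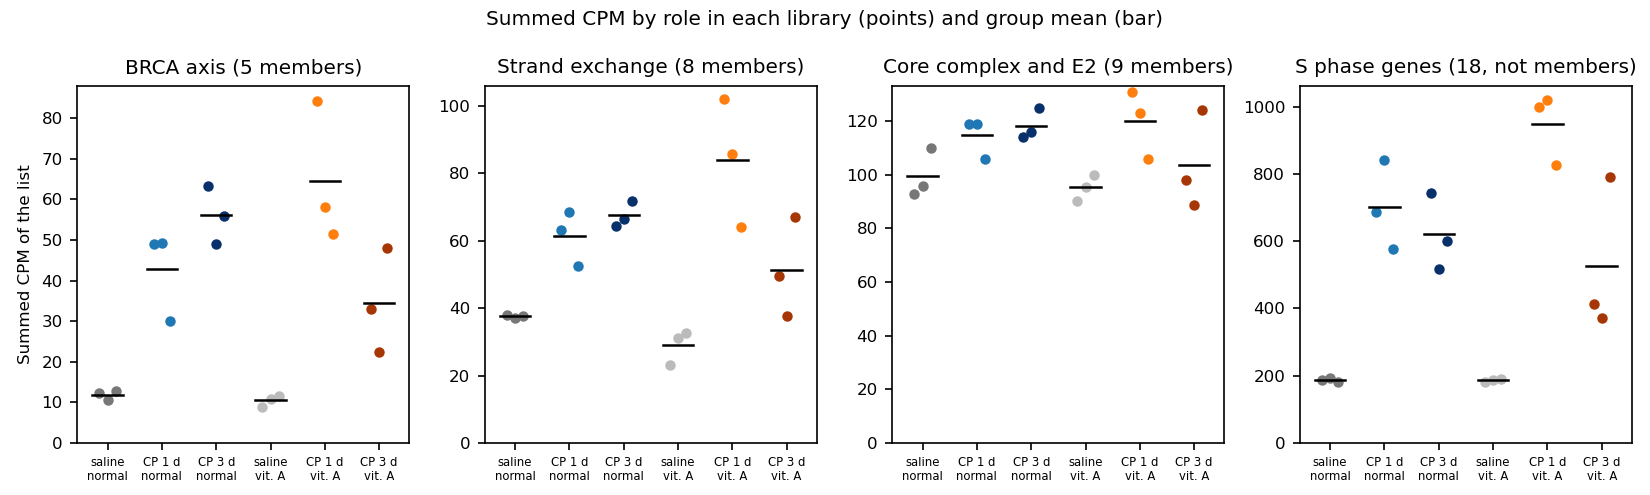
Summed CPM of the BRCA axis, the strand exchange group, the core complex with UBE2T, and 18 S phase genes that are not members, in each library (points) and as group means (bars). BRCA axis sums run from 8.92 to 12.7 CPM in saline and from 30.1 to 84.2 CPM at 1 day, core complex sums overlap or nearly meet (90.4 to 110 and 106 to 131 CPM), and S phase sums run from 181 to 192 CPM in saline and from 578 to 1020 CPM at 1 day.

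No member differed between the diets in the main test. Under saline, at 1 day and at 3 days the genes that passed were 0.0104%, 0.466% and 0.00518% of all tested and included none of the 36. With an unadjusted p under 0.05 there were 1, 4 and 3 members (2.78%, 11.1% and 8.33%), beside 3.78%, 11.1% and 3.76% of all genes, so the share at 1 day was that of all genes. DESeq2 also called none. Without mouse 2 of the vitamin A group at 3 days, 1 member had such a p at 3 days and none passed. The 4 at 1 day were all higher on vitamin A. Eme1 was 1.25 log2 units higher (SE 0.45, adjusted p = 0.259), Rad54l 0.95 (SE 0.37, adjusted p = 0.319), Blm 0.82 (SE 0.26, adjusted p = 0.187) and Brca2 0.68 (SE 0.30, adjusted p = 0.406), and in each the 3 vitamin A mice lay above the 3 normal diet mice. The same order of mice was seen in Exo1, Rad54b, Xrcc2, Palb2, Ube2t and Fancc, which had no such p. The share of all genes with that order was not counted. The smallest exact 2-sided p that 3 against 3 mice can give is 0.1. The authors' deposited table for 1 day lists genes with an unadjusted p under 0.05, in 2219 rows. Among these rows 9 members appear and 2 pass 0.05 after adjustment. How many of all genes pass there was not counted, so these numbers have no share beside them. With the sign turned to vitamin A over normal, the authors' deposited table gives Rad54l 0.95 (adjusted p = 0.0269) and Eme1 1.24 (adjusted p = 0.0441). The log2 sizes are close to those of edgeR, and the adjusted p-values are smaller. The authors' deposited tables for saline (2063 rows) and for 3 days (693 rows) list 1 member each, Xrcc3 at -1.07 (adjusted p = 0.237) and Bard1 at -0.88 (adjusted p = 0.999).

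The interaction tests ask whether diet changed the response itself. None of the 19323 genes passed for the response at 1 day or for the step from 1 to 3 days (0.0% in both), and so no member did. For the response at 1 day, 3 members (8.33%) had an unadjusted p under 0.05, near the 7.79% of all genes that did, namely Rad54l with a difference of 1.79 log2 units (SE 0.56, adjusted p = 0.359), Eme1 with 2.01 (SE 0.68, adjusted p = 0.428) and Xrcc3 with 1.47 (SE 0.57, adjusted p = 0.516). For the step from 1 to 3 days there were 8 (22.2%, beside 8.96% of all genes), all negative. A negative value means a more downward step on vitamin A than on the normal diet, not a lower level there. The 8 were Brca2, Blm, Palb2, Rad54l, Brca1, Bard1, Eme1 and Hrob, with differences from -1.82 to -1.09 and adjusted p from 0.365 to 0.527. The value of -1.82 was that of Hrob, which passed the filter on low counts through the injured groups only. The diet and time comparisons share the 1 day groups, so these are not separate pieces of evidence. Without mouse 2 at 3 days the same 8 members had an unadjusted p under 0.05 for that step, with differences from -2.06 to -0.90, and none passed. DESeq2 called no member in either interaction.

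Other genes of the same pathways were set beside the members from a list of 63, of which 62 were tested and Atrip had no counts. At 1 day 18 of 62 were higher and 1 lower on the normal diet, and 23 higher and 1 lower on vitamin A, with medians of 0.29 and 0.33. Without Cdc25c and Poln, which passed the filter on low counts through the injured groups only, 17 and 22 of 60 were higher. Clspn, encoding the CHK1 mediator claspin, rose by 4.69 and 5.26 log2 units (adjusted p = 9e-06 and 1.15e-06) and Uhrf1 by 4.34 and 5.12 (adjusted p = 7.13e-06 and 6.46e-07). Clspn means were 0.574 ± 0.274 and 14.4 ± 4.91 CPM on the normal diet and 0.543 ± 0.281 and 21.2 ± 4.07 CPM on vitamin A, with no overlap between saline and injured mice. Cdc25c, a phosphatase gene of mitotic entry, was at 0.0488 ± 0.0846 and 1.91 ± 1.4 CPM on the normal diet. Rev3l, the catalytic subunit of translesion polymerase zeta, fell by 0.69 on the normal diet (adjusted p = 0.0129) and had a change of -0.41 on vitamin A (adjusted p = 0.102).

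Repair pathways that do not rest on recombination were counted in the same way at 1 day. Of 19 nucleotide excision repair genes none passed on either diet, with medians of 0.10 and 0.01. Of 12 end joining genes, Xrcc5 and Xrcc6, the Ku subunits, passed on the normal diet with log2 changes of 0.42 and 0.40 and none passed on vitamin A. Of 7 mismatch repair genes Msh6 alone rose (0.97 and 1.2). Of 22 base excision and alkyl reversal genes 2 rose on the normal diet, Neil3 and Ung (log2 2.84), while on vitamin A 5 rose and 1 fell. Neil3 passed the filter through the injured groups only, at 0.142 ± 0.0439 CPM in normal diet saline and 3.6 ± 1.38 CPM at 1 day, and without it 1 and 4 rose. Each count is a description of a list written with general knowledge, set beside 7.26% and 10.2% of all genes higher, and the lists were not tested against each other.

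Markers of dividing cells also rose at 1 day. All 18 S phase genes were higher at 1 day on both diets (median log2 2.41 and 2.67) and at 3 days (2.07 and 1.85), and their summed level was 181 to 192 CPM in saline mice, 578 to 841 CPM at 1 day on the normal diet and 827 to 1020 CPM on vitamin A. All 13 mitosis genes were higher too (3.73 and 4.72 at 1 day). From 1 to 3 days on vitamin A, 5 of the 18 S phase genes fell (median -0.79), beside Blm and Brca2, and none of the 13 mitosis genes passed (median -0.51, none with an unadjusted p under 0.05). On the normal diet over the same step no S phase gene passed (median -0.21, 1 with an unadjusted p under 0.05), while all 13 mitosis genes had changes above 0 (median 1.39) and 2 of them passed, beside the members' median of 0.09. Mki67 went from 1.82 to 3.71 CPM in saline to 29.5 to 69.5 CPM at 1 day on the normal diet, and from 1.63 to 8.88 CPM to 99.9 to 198 CPM on vitamin A. None of these markers was at 0 in a whole group. The part of cell division in the rise of the members was not tested.

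The make-up of the bladder moved as well. Of 7 basal urothelium markers 5 rose at 1 day on the normal diet and 6 on vitamin A, with summed levels of 1950 to 2140 CPM in normal diet saline and 4410 to 5260 CPM at 1 day. On vitamin A those sums were 1400 to 1580 and 4750 to 6600 CPM. Fibroblast markers fell, 5 of 7 and 7 of 7, and of 11 umbrella cell and urothelium markers 2 and 7 fell while 1 and 2 rose. Of 8 smooth muscle markers 1 fell on each diet, and of 6 endothelial markers 1 and 0 rose. Of 8 macrophage markers 3 and 2 rose, and 1 fell on vitamin A. The summed level of 8 neutrophil markers, of which just 1 passes the filter on low counts in saline alone, went from 1.48 to 2.15 CPM to 4.59 to 13.2 CPM on the normal diet and from 1.83 to 4.25 CPM to 7.23 to 32.3 CPM on vitamin A, with Camp at 0 in 5 of the 6 groups. Of 9 lymphocyte markers 1 and 3 fell. Of 19 p53 targets 10 rose on each diet. Without Gdf15, which passed the filter on low counts through the injured groups only, 9 rose on each. Cdkn1a, the p53-driven inhibitor of the cell cycle, rose by 2.00 and 1.91 log2 units. From 1 to 3 days fibroblast markers rose, 4 of 7 on the normal diet (median log2 1.93) and 7 of 7 on vitamin A (1.92), and 2 of 7 basal markers fell on vitamin A, beside the falls of Blm and Brca2 there. The part of these shifts in the members' changes was not tested.

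For 13 members another gene with at least 1000 counts lies on the opposite strand of the same stretch. Whether reads were counted by strand is not given in the sources used here, so reads from such partners cannot be told apart. Partners changed by differing amounts at 1 day. Lrrc41 opposite Rad54l changed by 0.04 and 0.01 log2 units, Polg opposite Fanci by -0.18 and -0.22, Klc1 opposite Xrcc3 by -0.12 and 0.00, and Zfp276 opposite Fanca by 0.16 and 0.00. Lrrc59 opposite Eme1 changed by 0.35 and by 0.51, the latter past the threshold (adjusted p = 0.0311), beside 1.97 and 3.98 for Eme1. Mospd2 opposite Fancb changed by -0.58 and by -0.78, the latter past the threshold (adjusted p = 0.0089), beside -0.11 and 0.02 for Fancb. None of the following partners passed. Ndufab1-ps opposite Blm changed by 0.86 and -0.06 log2 units, Mrpl27 opposite Eme1 by 0.58 and -0.14, Trmt6 opposite Mcm8 by 0.40 and 0.30, and Hscb opposite Chek2 by 0.35 and -0.59. Fanci also has Gm31653 opposite, which fell by 1.27 on vitamin A (adjusted p = 0.00548).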

How the data were processed

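Bladder total RNA was made into libraries with the NEBNext Ultra kit, per the labels. The submitters' processing notes name featureCounts 1.5.0-p3, HISAT2 2.0.5, DESeq2 1.20.0 and the GRCm39 build. What each did, and whether strand was used, is not given in the sources used here. Raw counts per gene and FPKM are what the authors deposited, in separate tables. The authors' diet tables hold a log2 ratio, a p-value and an adjusted p-value for genes with an unadjusted p under 0.05, and list normal over vitamin A, a sign turned here.

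Unnamed features (0.474% to 0.81% of counts) were left out, which leaves 19439887 to 34431039 counts per library. The main test was that of edgeR 4.0.16 under R 4.3.3 (robust quasi-likelihood, TMM, filterByExpr, 1 mean per group over 18 libraries, 12 residual degrees of freedom), with Benjamini-Hochberg adjustment over 19323 genes in each of 11 contrasts, 2-sided, threshold 0.05. The fit was tested on simulated data. Folds are 2 to the power of the fitted log2 ratio. CPM is unscaled, mean ± SD over 3 mice. P-values weigh each difference against the spread between mice of the same group, pooled over all 6 groups and moderated across genes.

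Members, lists and tests were chosen with earlier results of these data known. All 36 members are named. From each other repair list, the largest changes past the threshold at 1 day on the normal diet are named, at most 4 in each direction, except 1 gene that is not reported here, and tissue and division markers were set by name. Alternatives were RLE or no scaling, no filter, at least 1 CPM in 3 libraries, unnamed features kept, the replicate number as a block, only the groups compared, each mouse left out, DESeq2 1.42.0, and limma 3.58.1 on log2(FPKM + 1). No batch is given in the labels.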

Additional observations from a re-analysis of the deposited data

How the results depend on the processing

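No called change of a member reversed its direction under any alternative run. Of the 322 changes of members that were not called, over 11 comparisons, 92 had values on both sides of 0 as mice were left out in turn, among them Rbbp8 at 1 day on both diets. With each mouse left out, the members higher at 1 day were 11 to 15 on the normal diet (17 with all mice) and 20 to 22 on vitamin A (22), and those higher at 3 days against saline were 14 to 17 (17) and 11 to 15 (15). The 1 member lower at 1 day on the normal diet, Fancc, was 0 in each such run, and also 0 with no filter, with the replicate block and with limma on FPKM. From 1 to 3 days on vitamin A, the members lower ranged from 0 to 6 over the left-out mice (2 with all), being 6 without cyclophosphamide mouse 3 at 3 days and 0 without any other, and the members higher from 0 to 1. The lower count was 0 with only the groups compared, 8 with DESeq2 and 7 with limma on FPKM. From 1 to 3 days on the normal diet, 1 member was higher with no scaling factor, with at least 1 CPM in 3 libraries and with DESeq2, against 0. At 3 days against saline on vitamin A, 9 members were higher with only the groups compared, a fit with fewer mice to estimate the spread. For the others the cause was not tested. Of the log2 values of single called members, 643 of the 666 values under other settings stayed past the threshold and 23 did not, and 381 of the 444 with a mouse left out stayed and 63 did not. Deviations of same-numbered mice correlated at -0.12 to 0.2. That showed no pairing by replicate number, but whether same-numbered mice shared a cage is not given. With the number as a block the members higher at 1 day were 17 and 21. In that fit the vitamin A calls of Fancd2 at 1 day and Xrcc3 at 3 days were also lost. Depth limits Exo1 and Hrob, with 2 to 16 counts in a saline group.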
